A study of Homo sapiens with 2 samples.

Results

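Dense clusters of PAX5 binding, laid out like stitched enhancers, were examined as chains of neighbouring ChIP-seq peaks in NALM6 leukaemia cells. The members were chosen by the measured positions of their summits (the point of highest ChIP signal in a peak). Peaks on chromosomes 1 to 22 and X were joined to their neighbour when the summits lay at most 12500 bp apart, and the peaks of chains with 5 or more were kept. This gave 452 chains with 2926 peaks, which is 13.7% of the 21313 peaks on these chromosomes (95% Wilson interval 13.3 to 14.2) and part of 21361 peaks in all. Because positions from the ChIP against input comparison chose the members, and every value of a peak comes from the same comparison, all values below are descriptions and no test was made.

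NALM6 cells, in which PAX5 was mapped, are an established line derived from a human B-cell precursor leukaemia. They had received no treatment and were grown for 4 days in medium with 10% serum and 2 mM glutamine. Binding was measured by ChIP-seq, in which chromatin bound by PAX5 is pulled down with an antibody (Abcam) and sequenced, and it was compared with an input control sequenced without antibody. There was 1 sample of each, with no replicates. The control is labelled as NALM6, but RXL also appears in its title, a name left unexplained by the sources used here. The ChIP pool held 46190180 tags and the control 25416858. The cell type could not be checked against marker genes, because the files hold binding and no expression.

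PAX5 binds DNA through a paired domain and is the factor that commits progenitors to the B-lymphocyte lineage, where it activates B-cell genes and represses genes of other lineages. Regulatory regions often hold several binding sites close together. Methods that look for very large enhancers join sites that lie within a set distance into 1 region and rank the regions by their summed signal, and regions found this way in many cell types lie near genes that define the cell type. Such methods use marks of active chromatin or co-activators and often leave out promoters. Here only PAX5 was measured, promoters were not removed, and the chains were not placed relative to genes, because the genome sequence and annotation of the files' build (hg19) were not used here.

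Most PAX5 peaks stood alone or with few neighbours. Of the peaks on these chromosomes, 9388 (44.0%) had no neighbour within the joining distance, 4812 lay in pairs, 2535 in groups of 3 and 1652 in groups of 4. The number of chains fell with size, from 183 chains of 5 and 117 of 6 to 43 of 8 and 13 of 10. Chains of 10 or more numbered 36 and held 424 peaks. The largest had 20.

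**Figure D1:**
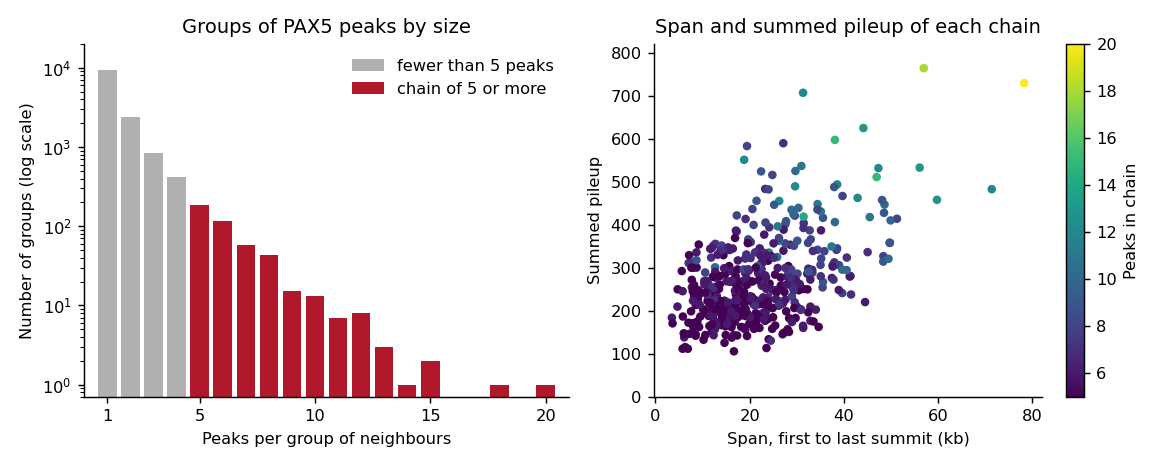
Left, the number of groups of neighbouring PAX5 peaks (log scale) by the number of peaks in the group, with chains of 5 or more in red. Right, the span of each of the 452 chains in kb against its summed pileup, coloured by its number of peaks; the chains of 18 and 20 peaks stand at the upper right.

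The span from first to last summit had a median of 20.6 kb (95% interval 19.4 to 22.1), with a lowest value of 3.48 kb and a highest of 78.3 kb. Intervals of medians are exact binomial intervals over chains or peaks of this 1 comparison, treat them as independent, and do not cover the spread between experiments. All spans together took up 10.1 Mb, or 0.374% of the effective genome size of 2700 Mb. Within the spans there were 289 peaks per Mb, against 6.28 per Mb over the rest of the chromosomes, a contrast that the joining rule itself creates.

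The median gap between neighbouring summits of a chain was 3008 bp (quartiles 1244 and 6300), where the median over all neighbouring peaks was 27109 bp, a contrast that the limit on gaps inside chains fixes. Of the 2474 gaps inside chains, 111 (4.49%) were 500 bp or less, 348 (14.1%) were longer but at most 1000 bp, and 641 (25.9%) were over 5000 but at most 10000 bp. A further 187 (7.56%) exceeded 10000 bp. At least 1 such long gap was present in 149 of the 452 chains (33.0%), and the limit falls at no break in the distances. The largest gap accepted anywhere was 12500 bp and the smallest refused was 12505 bp. There were 148 gaps in the last 500 bp below the limit and 136 in the first 500 bp above it.

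The other threshold, the number of peaks, also fell within a continuous distribution. The 413 groups of 4 peaks, just outside, had a median span of 12.3 kb and a median summed pileup of 156. The 183 chains of 5, just inside, had 17 kb and 204. Pileup counts the ChIP reads, after extension, that cover a summit, and it is scaled by the peak caller to the depth of the control, so that 1 read counts 0.550. The highest pileup in a group had a median of 56.1 in groups of 4 and 66.6 in chains of 5, and a highest value over more peaks is larger by construction.

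Beyond its ends, a chain was separated from the next peak by more than 12500 bp, as the joining rule requires. These distances were not compared with those around smaller groups. The gap from an end of a chain to the next peak had a median of 35.8 kb over 904 ends. It was 25 kb or less at 305 ends (33.7%) and above 100 kb at 152 (16.8%). Of the chains, 121 had another chain within 100 kb, forming 54 groups, of which 10 held 3 or more chains.

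The longest such group, 349 kb, lay on chromosome 7 from 1952508 to 2301704, with 4 chains and 32 peaks. A group on chromosome 21 from 45558128 to 45775381 held 4 chains and 29 peaks, and another on chromosome 16 from 87734681 to 87915306 held 4 chains and 22 peaks. The group with the most peaks in chains, 34, lay on chromosome 17 from 79367873 to 79504905 and held 3 chains within 137 kb.

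The chain with the most peaks lay on chromosome 20 from 61411775 to 61490086. Its 20 summits spanned 78.3 kb, the longest span of any chain. Their pileups ran from 18.2 through a median of 29.7 to 88.0, and their folds from 2.92 through 4.88 to 7.08. The fold is the deposited ratio of ChIP pileup to local control background, with 1 added to each. No peak in it reached a fold of 10, but 10 of the 20 reached a fold of 5, the highest such number in any chain. Several of its peaks were wide, the widest 5634 bp and the next 3671 bp, and the peaks covered 26.2% of the span between the first and last summit.

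The chain with the largest summed pileup, 764, lay on chromosome 13 from 114048246 to 114105223. It held 18 peaks over 57.0 kb. Pileups ran from 21.5 through a median of 36.0 to 120. The strongest peak, the 16th of 18, had 218 reads before scaling (exact Poisson 95% interval 190 to 249), which is its pileup of 120. Its fold was 11.0 over a local control background of 10 reads. Control backgrounds, here and below, are recovered from pileup and fold and are on the scale of the pileup, not of the unscaled ChIP reads. The last peak of the chain had a fold of 8.87, and the other 16 lay between 2.43 and 5.89. The sum of this chain was thus made by many moderate peaks and 1 strong one.

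A chain on chromosome 1 from 31203379 to 31234721 ranked behind only those of chromosomes 13 and 20 by summed pileup (707) with only 12 peaks over 31.3 kb. Its eighth peak had a pileup of 165 from 299 reads (266 to 335), a fold of 14.3 over a background of 10.6 reads. The first peak of the chain had a pileup of 111 and a fold of 10.1, and the sixth 87.5 and 5.21. The remaining 9 pileups lay between 27.0 and 50.6. This is 1 of 5 chains with more than 1 peak at a fold of 10 or above.

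The chain richest in strong peaks, those with a fold of 10 or more, lay on chromosome 19 from 2076790 to 2096228. It had 8 peaks over 19.4 kb, with pileups of 113, 45.1, 107, 87.5, 52.3, 116, 27.5 and 34.1 in order along the chromosome. The corresponding folds were 12.7, 4.19, 15.4, 8.04, 6.68, 13.5, 4.50 and 2.34. The first, the third and the sixth were strong. Between them lay summits with folds of 4.19, 8.04 and 6.68, and the chain ended with folds of 4.50 and 2.34. No other chain had 3 strong peaks.

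Most chains, 396 of 452, held no strong peak, and some of these were long. On chromosome 6 from 27775125 to 27806585, 14 peaks lay over 31.5 kb. Their pileups stayed between 18.2 and 43.5 and their folds between 3.20 and 5.58, over a median control background of 6 reads. The strongest peak contributed 10.4% of the summed pileup of 419, the lowest share of any chain. A chain of 15 peaks on chromosome 22 from 29187460 to 29225570 reached a sum of 597 with a median fold of 2.97 and a highest fold of 6.

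The chains with the most summed pileup per kb were a few kb long. The highest summed pileup per kb, 53.0, was found on chromosome 1 from 234654712 to 234659427, where 5 peaks lay within 4.71 kb with pileups of 44.0, 53.4, 27.0, 88.6 and 36.9. Another on chromosome 1 from 9711977 to 9715452 packed 6 peaks into 3.48 kb, the shortest span of all, with 52.9 per kb and no fold above 4.36. On chromosome 19 from 1647259 to 1652845, 5 peaks within 5.59 kb gave 52.3 per kb and included 1 of 205 reads (178 to 235) and a fold of 10.9. On chromosome 6, the 5 peaks from 32936456 to 32940087 had pileups from 29.2 to 39.6 and covered 52.7% of the span between the first and last summit. The fifth highest summed pileup per kb, 46.1, belonged to 5 peaks over 7.14 kb on chromosome 6 from 88628342 to 88635481. The median over all chains was 12.5 per kb.

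Of the remaining chains selected for their size, the sum was 625 for 13 peaks on chromosome 17 from 75417534 to 75461698 and 551 for 12 peaks on chromosome 10 from 98047665 to 98066491. It was 537 for 11 peaks on chromosome 8 from 142185752 to 142216742 and 533 for 13 on chromosome 7 from 2127625 to 2183735. Their highest folds lay between 6.48 and 9.16, and none of them held a peak at a fold of 10. A chain of 15 on chromosome 17 from 79406501 to 79453476 summed to 511 and a chain of 12 on chromosome 1 from 23901152 to 23939751 to 494. The latter was 1 of 8 chains tied at 12 peaks, and was named because it comes first in chromosome order. The next longest spans after that of chromosome 20, 71.4 kb on chromosome 6 from 36591537 to 36662961 and 59.8 kb on chromosome 7 from 102036554 to 102096344, held 12 and 13 peaks with sums of 483 and 458. Chains of similar sum could differ widely in span, since the sums of 551 and 533 belong to spans of 18.8 and 56.1 kb.

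**Figure D2:**
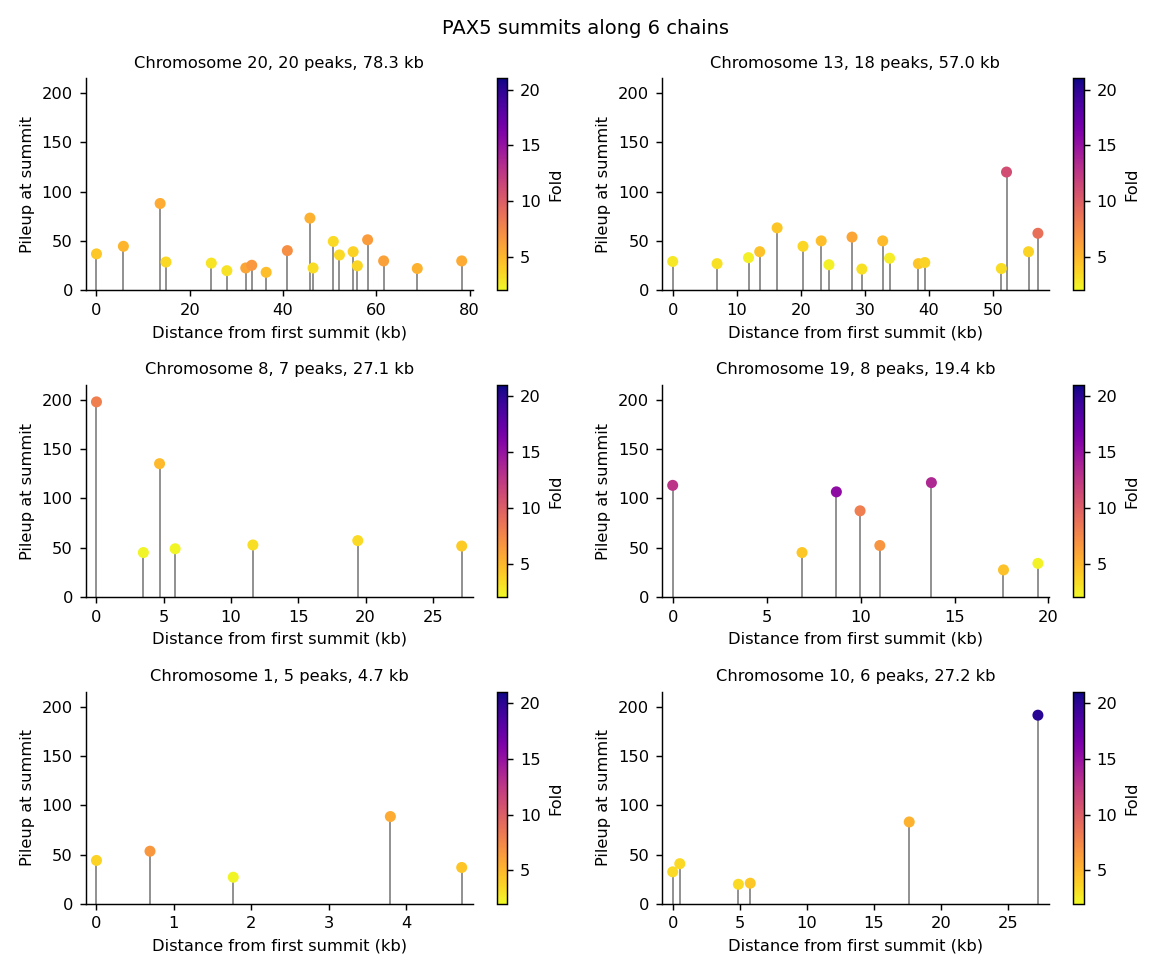
Each panel shows 1 chain, with the distance of every summit from the first summit of the chain (kb) against its pileup, coloured by fold enrichment. The chains on chromosomes 20 and 13 hold many moderate peaks, and that on chromosome 19 holds 3 peaks at folds of 12.7 to 15.4. That on chromosome 10 is led by 1 summit of very high pileup, and that on chromosome 8 holds summits of 198 and 135.

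Some of the strongest summits of the list lay in small chains. The highest pileup of the list, 198 from 360 reads, opened a chain of 7 peaks on chromosome 8 from 130180491 to 130207639. The other pileups of that chain were 45.1, 135, 49, 52.8, 57.2 and 51.7. Its folds were moderate, 2.17 to 7.96, and the control was high as well, with a median background of 19.4 reads against 8 over all peaks. The part that the local control level plays in this chain was not tested.

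The second highest pileup on chromosomes 1 to 22 and X was 191, from 348 reads. It closed a chain of 6 peaks on chromosome 10 from 5855214 to 5882431. At this summit the background was 8.55 reads and the fold 20.2. The other 5 peaks of the chain had pileups of 32.5, 40.7, 19.8, 20.9 and 83.1, so the strongest stood 9.67 times above the weakest, the widest ratio within any chain. On chromosome 17 from 56406357 to 56429654, a 6055 bp wide peak with a pileup of 153 and a fold of 14.1 opened a chain of 7, in which the others had folds from 2.23 to 5.88. On chromosome 1 from 167586850 to 167606989, the first of 7 peaks had a pileup of 165 and a fold of 11.0, and the others lay between 21.5 and 63.8.

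The 10 highest pileups in chains include these 4 and the chromosome 1 peak of 299 reads described above. The other 5 ranged from 140 to 149 and lay on chromosomes 16, 19, 21 and 22. Their folds were between 10.9 and 13.2 and their chains had 5 to 7 peaks.

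The peaks of each chain were sorted by pileup to describe their spread, and the order of the values that follow is fixed by the sorting. The strongest peak had a median pileup of 71.0 (67.1 to 74.3), the next 49.5 (47.9 to 52.8) and the third 39.6 (37.4 to 40.7), while the weakest had 23.7 (23.1 to 24.8). The strongest exceeded the weakest 2.89-fold at the median (2.76 to 3). The most even chain, 5 peaks on chromosome 19 from 4895655 to 4916825, had pileups between 34.1 and 36.9. The strongest peak supplied a median of 27.1% of a chain's summed pileup. It exceeded 50% in 1 chain, on chromosome 22 from 37465540 to 37476989, where it supplied 51.2%.

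The strongest peak was the first or last in 136 of 452 chains (30.1%, 26 to 34.5). End positions made up 33.0% of a chain's positions on average over the chains, a value inside that interval. In the 183 chains of 5, it was at the first position in 39, the second in 37, the third in 43, the fourth in 33 and the fifth in 31. End peaks and inner peaks had median pileups of 35.2 (34.1 to 36.3) and 35.8 (34.7 to 36.3), which did not differ beyond these intervals. Their median folds were 3.88 and 3.78, and their median widths 420 and 446 bp (445.5). The nearest neighbour of the strongest peak lay at a median of 2037 bp (1824 to 2261), that of the other members at 1811 bp (1697 to 1930).

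Members of 1 chain resembled each other only weakly. The intraclass correlation, the share of the variance of log2 values that lies between chains rather than within them, was 0.081 for pileup, 0.050 for fold and 0.036 for width over the 2926 members. It was higher for the control background, at 0.16. Windows around neighbouring peaks can share control reads, and the part of such sharing in this value was not tested.

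Peaks in chains were close in strength to other peaks. The median pileup was 35.5 (34.7 to 36.3) in chains and 33.6 (33.0 to 33.6) outside, a ratio of 1.06. With only chains of 10 or more counted as clusters the ratio was 0.984. The median fold went the other way, 3.8 (3.75 to 3.85) against 3.9 (3.88 to 3.92), and the median control background was higher in chains, at 9 reads (8.77 to 9) against 8. Median −log10 q, where q is the peak caller's adjusted p, was 7.8 (7.44 to 8.04) and 7.65 (7.54 to 7.8), and these intervals overlap. The intervals of pileup and fold do not, but the differences are small beside the quartiles of the members, 27.5 and 49.5 for pileup and 3.13 and 4.94 for fold. Chains of 10 or more had the lowest median fold, 3.63 (3.51 to 3.71), and a median pileup of 33.0, close to the 32.5 of single peaks.

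Peaks with a high fold were present in chains at about their general rate. Of the 2926 members, 710 (24.3%, 22.7 to 25.9) reached a fold of 5, compared with 25% of all peaks on these chromosomes. A fold of 10 was reached by 62 members (2.12%, 1.66 to 2.71), against 1.72% of all peaks and 1.66% (1.48 to 1.85) of peaks outside. Neither count stands apart from its background beyond these intervals. These 62 were 16.9% of the 367 such peaks. They were spread over 56 chains, 51 with 1, 4 with 2 and 1 with 3. A fold of 5 was reached by at least 1 peak in 354 chains (78.3%) and by none in 98. Among the 100 highest peaks of these chromosomes, 17 by fold (10.9 to 25.5), 24 by pileup (16.7 to 33.2) and 28 by −log10 q (20.1 to 37.5) lay in chains, beside 13.7% of all peaks. The 100 lowest by fold held 24 members (16.7 to 33.2), the 100 lowest by −log10 q held 20 (13.3 to 28.9) and the 100 lowest by pileup held 7 (3.43 to 13.7).

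Of the values compared, width differed most between members and other peaks, with a ratio of medians of 1.16. Median width was 436 bp (435.5 bp, 427 to 449) in chains and 377 bp (374 to 379) outside, with 362 bp for single peaks and 395 bp for groups of 2 to 4. Peaks of 1000 bp or more made up 7.83% of members (6.91 to 8.86) and 2.48% of other peaks (2.26 to 2.71). Chains held 229 of the 685 peaks this wide (33.4%) and 44 of the 100 widest, beside 13.7% of all peaks. Closely spaced summits were also more frequent, since 7.42% of members and 3.07% of others had another peak within 500 bp, a figure that the joining rule raises.

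**Figure D3:**
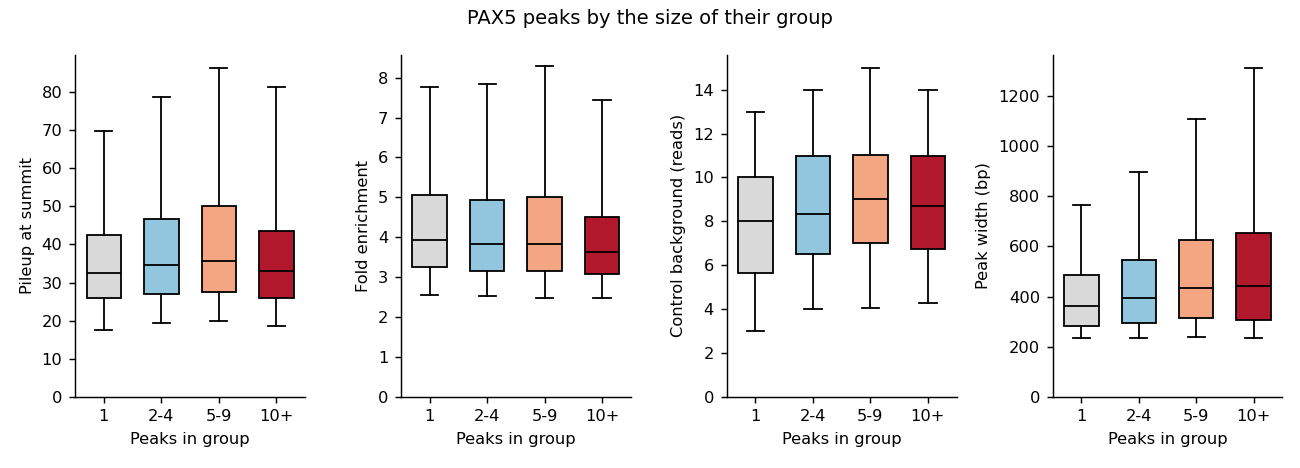
Pileup at the summit, fold enrichment, control background in reads and peak width in bp for peaks in groups of 1, 2 to 4, 5 to 9 and 10 or more. Boxes give the median and quartiles and whiskers the 5th and 95th percentiles; medians of pileup and fold differ little between the groups, and width rises from 362 to 442 bp.

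The differences were then read within 4 equal classes of all peaks by control background. In the lowest class (up to 6 reads) 9.7% of peaks were members, and in the highest (above 10.1 reads) 16.8%. In the lowest class, members had a lower median fold than others (4.16 against 4.54) and a slightly lower pileup (22.6 against 23.7). In the highest class they had a higher fold (3.38 against 3.29) and pileup (45.7 against 43.5). Members were wider in all 4 classes, with medians of 342.5 against 329 bp in the lowest and 508 against 437 bp in the highest. The background moved with membership, and its part in the share of peaks in chains was not tested.

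The same comparison was made within each chromosome. Median width was larger in chains on 23 of 23 chromosomes, with ratios from 1.05 to 1.38. Median pileup was larger on 21 of 23, with ratios from 0.952 on chromosome 7 to 1.21, and the control background on 22 of 23, with ratios from 1 to 1.27. Median fold was larger in chains on 7 of 23, with ratios from 0.840 to 1.07.

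Chains were unevenly distributed among chromosomes. Chromosome 19 had 43 chains, chromosome 17 had 42 and chromosome 16 had 33, while chromosome 18 had 5 and chromosome 15 had 6. Of the peaks on chromosome 19, 24.5% (22.1 to 27.0) lay in chains, and on chromosomes 21, 22, 16 and 17 the share was 23%, 22.3%, 20.2% and 19.8%. Chromosome 15 had the lowest share, 5.42% (3.94 to 7.41), followed by chromosome 3 with 6.89% and chromosome 8 with 7.11%. Chromosomes 17, 19 and 22, the densest in peaks, held 24.8% of the members and 15.5% of all peaks.

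Peak density alone did not order the chromosomes. Chromosome 15 had 8.12 peaks per Mb and chromosome 10 had 8.05, yet 5.42% and 15.4% of their peaks were in chains. Chromosome 7, at 6.25 peaks per Mb, had 18.5% (16.2 to 21.1), and chromosome 2, at 6.14, had 9.72% (8.32 to 11.3). These intervals do not overlap, but they treat peaks as independent, which members of a chain are not.

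**Figure D4:**
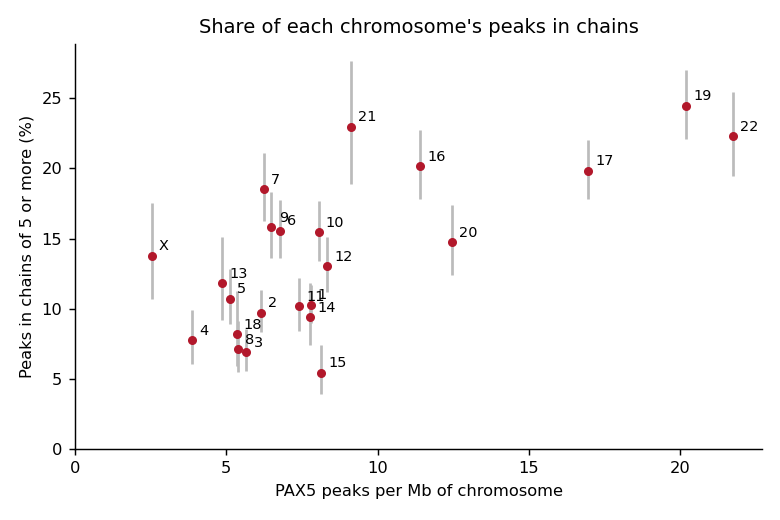
PAX5 peaks per Mb of each chromosome (first to last summit) against the share of its peaks that lie in chains of 5 or more, with 95% Wilson intervals. Chromosome 19 has the highest share (24.5%) and chromosome 15 the lowest (5.42%), while chromosome X has the lowest density (2.53 per Mb) with a share of 13.8%.

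Chromosome X had the fewest peaks per Mb, 2.53, and a share in chains close to that of all chromosomes, 13.8% (10.7 to 17.5) in 9 chains. Of its 62 peaks within 5 Mb of the chromosome start, 20 (32.3%) lay in 3 chains, against 34 of 330 (10.3%) in 6 chains elsewhere. The control background differed in the same way, with a median of 8.66 reads over the 62 peaks and 4.05 over the 330. The part of the control level in this difference was not tested. The largest chain of X, 8 peaks from 2611073 to 2645478, had a median fold of 6.24, above the 3.8 of all members, with a median background of 8 reads. The first of 6 peaks from 40029278 to 40038670 reached a fold of 18.5.

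Members lay near chromosome ends more often than other peaks. Within 5 Mb of an end (taken as the last listed peak and as position 1, the latter left out for the acrocentric chromosomes 13, 14, 15, 21 and 22) were 34.2% of members (32.5 to 35.9) and 16.8% of other peaks (16.2 to 17.3). Of the chains, 148 (32.7%) had their centre there. The joining rule forms chains more readily where peaks are dense, by construction. The density of peaks near chromosome ends was not computed, and its part in this difference was not tested.

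The chains lay high in a ranking by summed pileup, and most groups above the usual threshold were smaller than 5 peaks. All 13504 groups of neighbouring peaks, from single peaks to the chain of 20, were ranked by summed pileup. This sum adds only the pileups at the summits of called peaks, not the reads over the whole region. A group above the threshold is therefore not called a stitched enhancer here. The threshold usual for stitched enhancers was applied, which is the point where a line of slope 1 touches the curve after both axes are scaled to equal length. It fell at a summed pileup of 132. Above it were 1153 groups with 29.5% of all pileup, of which 445 were chains of 5 or more, 691 were groups of 2 to 4 and 17 were single peaks. Of the 452 chains, 445 (98.5%) passed. The top 100 groups contained 99 chains and the top 500 contained 355.

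A sum grows with the number of peaks by construction. The highest sum of a single peak was 175 and that of a group of 2 to 4 was 370, against a median of 255 (244 to 264) and a highest of 764 for chains. Across the 452 chains, Spearman's rho with the number of peaks was 0.68 for summed pileup, 0.52 for span, 0.19 for highest fold and -0.10 for median fold. These correlations share the peaks they count and are descriptions. After the control background was subtracted from each pileup, 1337 groups passed and 443 of them were chains. Chains together held 14.9% of the summed pileup on these chromosomes, beside 13.7% of peaks. The top 45 chains held 18.0% of the pileup in all chains.

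**Figure D5:**
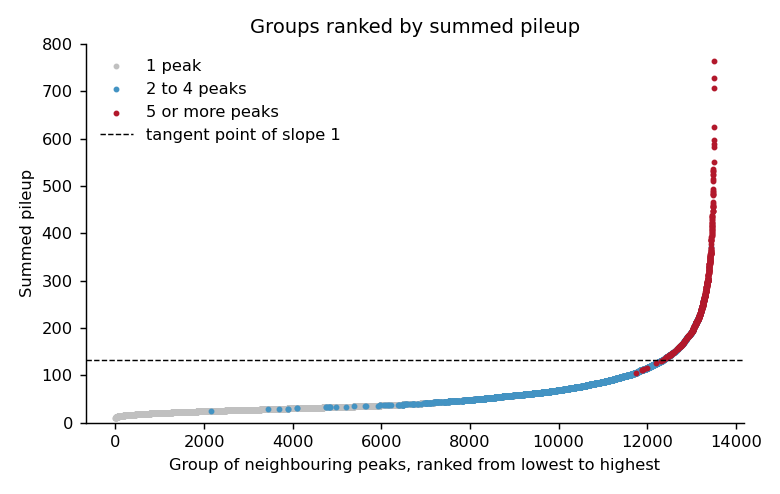
Summed pileup of all 13504 groups of neighbouring PAX5 peaks, ranked from lowest to highest, with groups of 1, of 2 to 4 and of 5 or more peaks in different colours. The dashed line marks the tangent threshold at 132, above which 445 of the 452 chains lie; chains are drawn last and cover many of the 691 groups of 2 to 4 peaks that also lie above it.

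A few chains lay where the control was high. The highest median background in a chain, 22.5 reads, was on chromosome 14 from 107170254 to 107198868, where 6 peaks had a median fold of 3.08. A neighbouring chain of 5 from 107246304 to 107259721 had 14.4 reads and 3.30. Another on that chromosome, 10 peaks from 106316401 to 106329060, had a median background of 6 reads, and its highest fold was 15.5. Of all members, 63 (2.15%) had a background of at least 16.0 reads, against 249 (1.35%) of other peaks. In the second, cleaned peak list that the authors deposited, 2 of the 2926 members had been removed or shortened, both in a chain of 5 on chromosome 17 from 41465513 to 41488657. The one that is missing had a background of 55.0 reads and a fold of 1.75, and without it the chain falls below 5 peaks.

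Chains also differed in how strong their typical member was. The highest median fold was 9.48, in a chain of 5 on chromosome 5 from 172261512 to 172278415, where 3 peaks reached a fold of 5 and the highest fold was 12.1. The lowest was 2.43, in a chain of 5 on chromosome 17 from 73772785 to 73781304, where no fold exceeded 3.90 and the median background was 11.0 reads.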

How the data were processed

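Per the submitters' processing notes, BWA and hg19 were used. MACS2 2.1.1.20160309 made the peak list, per the file headers, from pooled ChIP tags and a combined control (q-value threshold 0.05, 50 bp tags extended to 225 bp, no model, 1 tag per position). The number of libraries in each pool is not given here. The deposited values are a pileup signal scaled to control depth, a fold (a ratio of pileup plus 1 to background plus 1), and −log10 p and −log10 q values. Positions are on hg19 and count from 1.

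Reads at a summit were recovered as pileup divided by 0.550 (100% whole within 0.0051 pileup units), and the control background from pileup and fold. The Poisson p recomputed from both was within 0.05 log10 units for 100% of peaks. Chains, spans and sums were computed in Python 3.11.15 (with pandas 2.3.3, numpy 2.4.6, scipy 1.17.1; matplotlib 3.10.9 for plots), and chaining was tested on 55639 simulated peaks, of which 100% fell in groups of the right size. Intervals of shares are 95% Wilson intervals, and no interval covers the spread between libraries. The chains named by rule are the 10 with most peaks (8 chains tied at 12, taken in chromosome order), the 10 of largest summed pileup, the 5 longest, the 5 of highest pileup per kb and those holding the 10 highest pileups. Others were named after their values were seen. The members and measures were chosen with earlier results of these data known. The closing section gives 10 alternative settings. Promoter and motif shares and gene lists were planned but need hg19 sequence and annotation, not used here.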

Additional observations from a re-analysis of the deposited data

Results flagged for a closer look

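Outside chromosomes 1 to 22 and X, which the chains above leave out, there was 1 further chain of 5 or more peaks. It held 14 peaks on the unplaced contig GL000220.1 from 118858 to 144337, and its summed pileup of 1638 exceeded that of every chain on these chromosomes (highest 764). Its signal was above the control in the authors' call, but the control was also very high. The median background was 63.8 reads, the median fold 1.69 and the highest fold 3.95.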

How the results depend on the processing

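The number of chains, 452, was 136 at a joining distance of 5000 bp, 808 at 25000 bp, 865 with a minimum of 4 peaks, 36 with 10, and 64 with only the peaks at or above the median −log10 q. The share of peaks in chains, 13.7%, became 3.84%, 27.6%, 21.5%, 1.99% and 3.39% under the same settings, and the share of summed pileup, 14.9%, became 4.16%, 29.6%, 23.1%, 2.03% and 3.76%. The median span of 20.6 kb became 8.82, 39.9, 16.0 and 37.8 kb under the first 4. With only the peaks named in the cleaned list there were 451 chains with a median span of 20.6 kb. They held 13.7% of peaks and 14.9% of summed pileup. After merging peaks within 500 bp these shares were 12.8% and 14.1%, with gaps between peak edges 14.5% and 15.8%, without chromosomes 17, 19 and 22 12.2% and 13.3%, and without peaks at or above 16.0 reads of control background 13.2% and 14.2%. The ratio of median pileup in chains to that outside, 1.06, turned below 1 with a minimum of 10 peaks (0.984) and was 1.11 among peaks at or above the median −log10 q. Of 50 values, 21 stayed within the interval of the main value or, for counts, within 1.5 times of it. For the share of summed pileup this interval borrowed the width of the interval of the share of peaks. For the ratio it was formed by dividing opposite ends of the intervals of both medians. Both are rough bounds, so the tally is a description and no test. Wider or looser rules admit more peaks by construction; the other causes were not tested. The last 3 settings named (edges, chromosomes, background) were chosen after seeing the data. Settings for promoters, motifs and genes were not run, since they need hg19 annotation or sequence. No paired analysis was possible because each group has 1 sample. With 1 pooled ChIP, the spread between libraries is unknown, and a peak near the calling threshold can decide whether a chain has 5 members.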
